A study of Mus musculus with 18 samples.

Results

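The comparison described here set the transcriptome of Tsc2 KO mouse embryonic stem cells (mESCs) against that of wild-type mESCs, across all genes, in cells sorted as positive for Rex1GFP. It rests on 4 of the 18 libraries of the series, the 2 titled as Tsc2 KO GFP+ cells and the 2 titled as wild-type GFP+ cells, and 2 Nprl2 KO GFP+ libraries entered the same fit to add to the estimate of the spread. All of these cells derive from the male mESC line E14 and carry a Rex1GFPd2 reporter, a destabilised GFP placed at Rex1 (Zfp42), together with a Cas9 transgene at Rosa26. The wild-type group carries the reporter and Cas9 alone (genotype Rex1GFPd2-Cas9), and the Tsc2 KO group carries in addition a homozygous loss of Tsc2 (Rex1GFPd2-Cas9 Tsc2-/-). According to the study's methods, KO lines were made by cutting out an essential exon with a pair of guide RNAs and picking clones, and mESCs were grown with serum and LIF on mitomycin C-treated mouse embryonic fibroblast feeders. The labels do not say whether the 2 libraries of a genotype came from separate clones or cultures, so the p-values below measure only the spread between these libraries, which may be technical, and what belongs to 1 clone cannot be told apart from what belongs to the genotype. Because the cells were gated on Rex1GFP, the level of Zfp42 itself is partly set by the sort.

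Tsc2 forms a complex with Tsc1 and Tbc1d7 that switches off the small GTPase Rheb, which in turn activates the kinase complex mTORC1 on the surface of the lysosome. Active mTORC1 is known to favour translation, ribosome production and lipid and nucleotide synthesis, and to hold back autophagy and the MiT/TFE transcription factors that drive lysosomal genes. Nprl2 belongs to Gator1, which restrains the same kinase through the Rag GTPases when amino acids are scarce.

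The targeted gene was measured first. Tsc2 stood at 152 and 156 CPM (counts scaled to library size, with TMM factors) in the 2 wild-type libraries, at 162 and 147 CPM in the Nprl2 KO libraries and at 63.7 and 67.3 CPM in the Tsc2 KO libraries. Both Tsc2 KO libraries lay below all 4 others, with a log2 difference of -1.23 ± 0.08 (SE, n = 2 against 2; adjusted p = 9.7e-07, quasi-likelihood F test of edgeR, adjusted by Benjamini-Hochberg over all genes tested), a 2.35-fold lower level. Transcripts that lack only the deleted exon still count towards the gene, so the remaining reads are not a measure of intact Tsc2. Tsc1, the partner subunit, rose from 43.8 and 49.4 to 60.4 and 68.9 CPM (log2 difference 0.48 ± 0.10, adjusted p = 0.0041, or 0.06 without Tsc2 KO replicate 2), whereas the third subunit Tbc1d7 measured 10.5 and 9.71 CPM in wild-type and 10.3 and 9.201 CPM in Tsc2 KO (adjusted p = 0.84).

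The 4 libraries held between 8610357 and 13780861 estimated counts, so that a count of 0 allows up to 3 counts, which stood for 0.218 to 0.348 CPM. All 10 mESC markers were detected in every library, and their summed level was 4577 and 4312 CPM in wild-type and 5612 and 5344 CPM in Tsc2 KO. Markers of other cells were lower. The 20 feeder fibroblast markers summed to 777.3 and 579.3 CPM in wild-type and to 720.2 and 206.8 CPM in Tsc2 KO, with none of them at 0 throughout, so the Tsc2 KO libraries differed from each other more than the genotypes did. None of the 16 feeder markers tested passed the test, though 14 were below 0, with a median log2 difference of -0.63, and the part of feeder RNA in the results below was not tested. The summed levels of 18 primitive endoderm markers were 512.5 and 516.5 CPM in wild-type and 697 and 665.5 CPM in Tsc2 KO (2 genes of the list at 0 in all 4 libraries), and those of 12 trophoblast, 25 early neural and 21 primitive streak genes are given with their lists further on. In bulk RNA, fewer cells of a type and less RNA per cell cannot be told apart.

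2 chromosome segments stood apart from the rest of the genome, and named genes within them are marked as such. List counts include segment genes unless the text says otherwise. Each chromosome was divided in gene order at the single point that best separated its log2 differences, using genes whose mean log2 CPM reached 4 (coordinates are those of GRCm38). On chromosome 1 that split removed 22.9% of the absolute deviation and lay just before Cnppd1 (start 75135762). Proximal to it the median log2 difference between Tsc2 KO and wild-type was -0.01 over 146 genes, and distal to it 0.55 over 308 genes, of which 286 lay above 0. The 2 Tsc2 KO libraries were alike in this segment, with medians of 0.52 and 0.55 against the mean of wild-type, while the Nprl2 KO libraries had medians of -0.04 and -0.01. On chromosome 12 the split lay before Ptpn21 (start 98676741), where the median turned from -0.00 over 222 genes to -0.77 over 59 genes, 56 of them below 0. There the Nprl2 KO libraries were shifted as well, with a median of -0.73, and the direct difference between the 2 KO genotypes was -0.07, so that the wild-type libraries stood above both KOs. On the other chromosomes with enough genes, the best split removed at most 3.04% of the deviation in either KO. These splits were found from the same log2 differences, so the segment values are a description, and their cause was not tested.

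**Figure D1:**
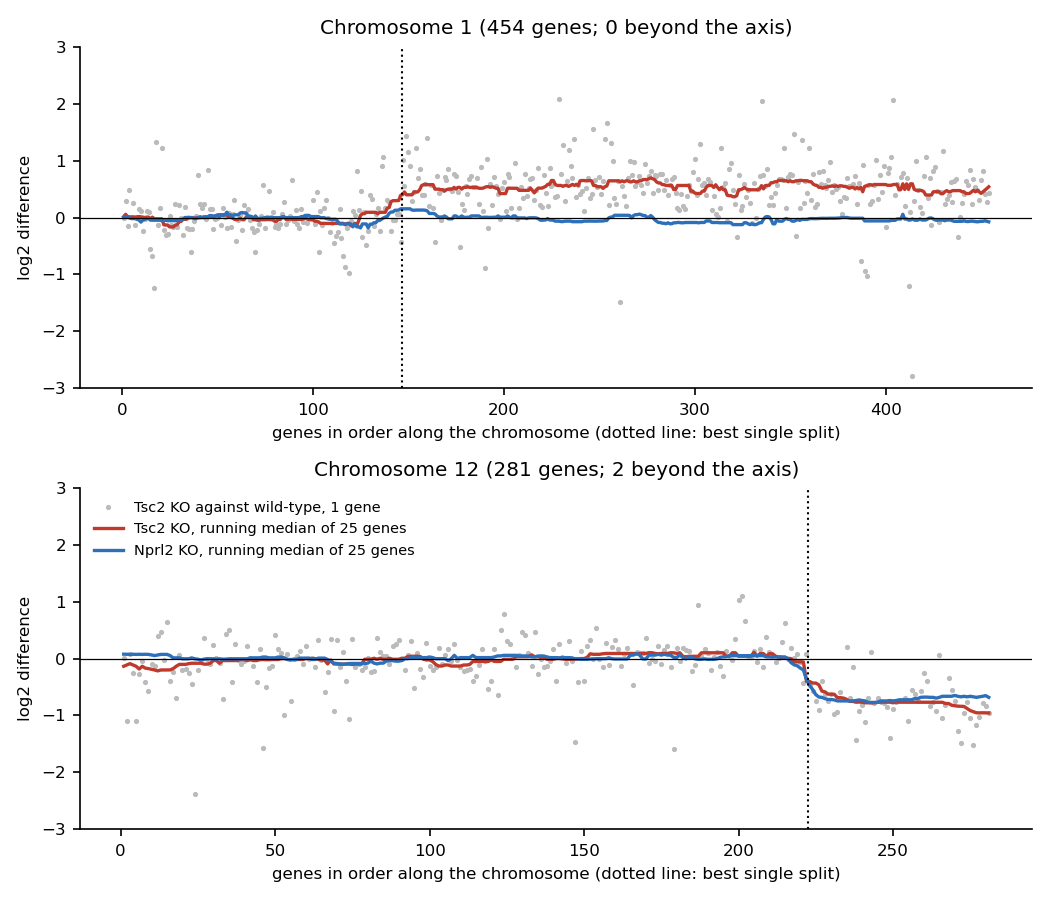
Log2 differences in gene order along chromosomes 1 and 12 for genes whose mean log2 CPM reached 4. Grey points are single genes in Tsc2 KO against wild-type, and lines are running medians of 25 genes for Tsc2 KO (red) and Nprl2 KO (blue). To the right of the dotted split the red line runs near 0.55 on chromosome 1 while the blue line stays near 0, and on chromosome 12 both lines run near -0.75.

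Across the genome, 13725 genes had enough counts to be tested. Of these, 2050 were higher in Tsc2 KO (14.9%) and 1946 were lower (14.2%) at an adjusted p under 0.05, and the median log2 difference over all genes was 0.00. List counts below are to be read beside these shares, and some lists, such as amino acid sensing, Polycomb and integrins, lie near or below them. Many called differences were small: 1947 of the 3996 called genes differed by less than 1.5-fold, whereas 531 were at least 2-fold higher and 484 at least 2-fold lower. The 611 genes of the 2 segments held 305 of the higher and 95 of the lower calls. Without them 1745 of 13114 genes were higher (13.3%) and 1851 were lower (14.1%). The number of calls depended on the libraries: it was 2661 without wild-type replicate 1 and 2225 without Tsc2 KO replicate 2. Where a list below has no called member in a direction, at most 1 of its members had an unadjusted p under 0.05 in edgeR, and at most 1 was called by DESeq2 or by limma on TPM. For comparison, 17.5% of genes were called higher in Tsc2 KO than in Nprl2 KO and 16.6% were called lower. Nprl2 KO against the same wild-type libraries gave 2.78% called higher and 3.66% called lower.

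**Figure D2:**
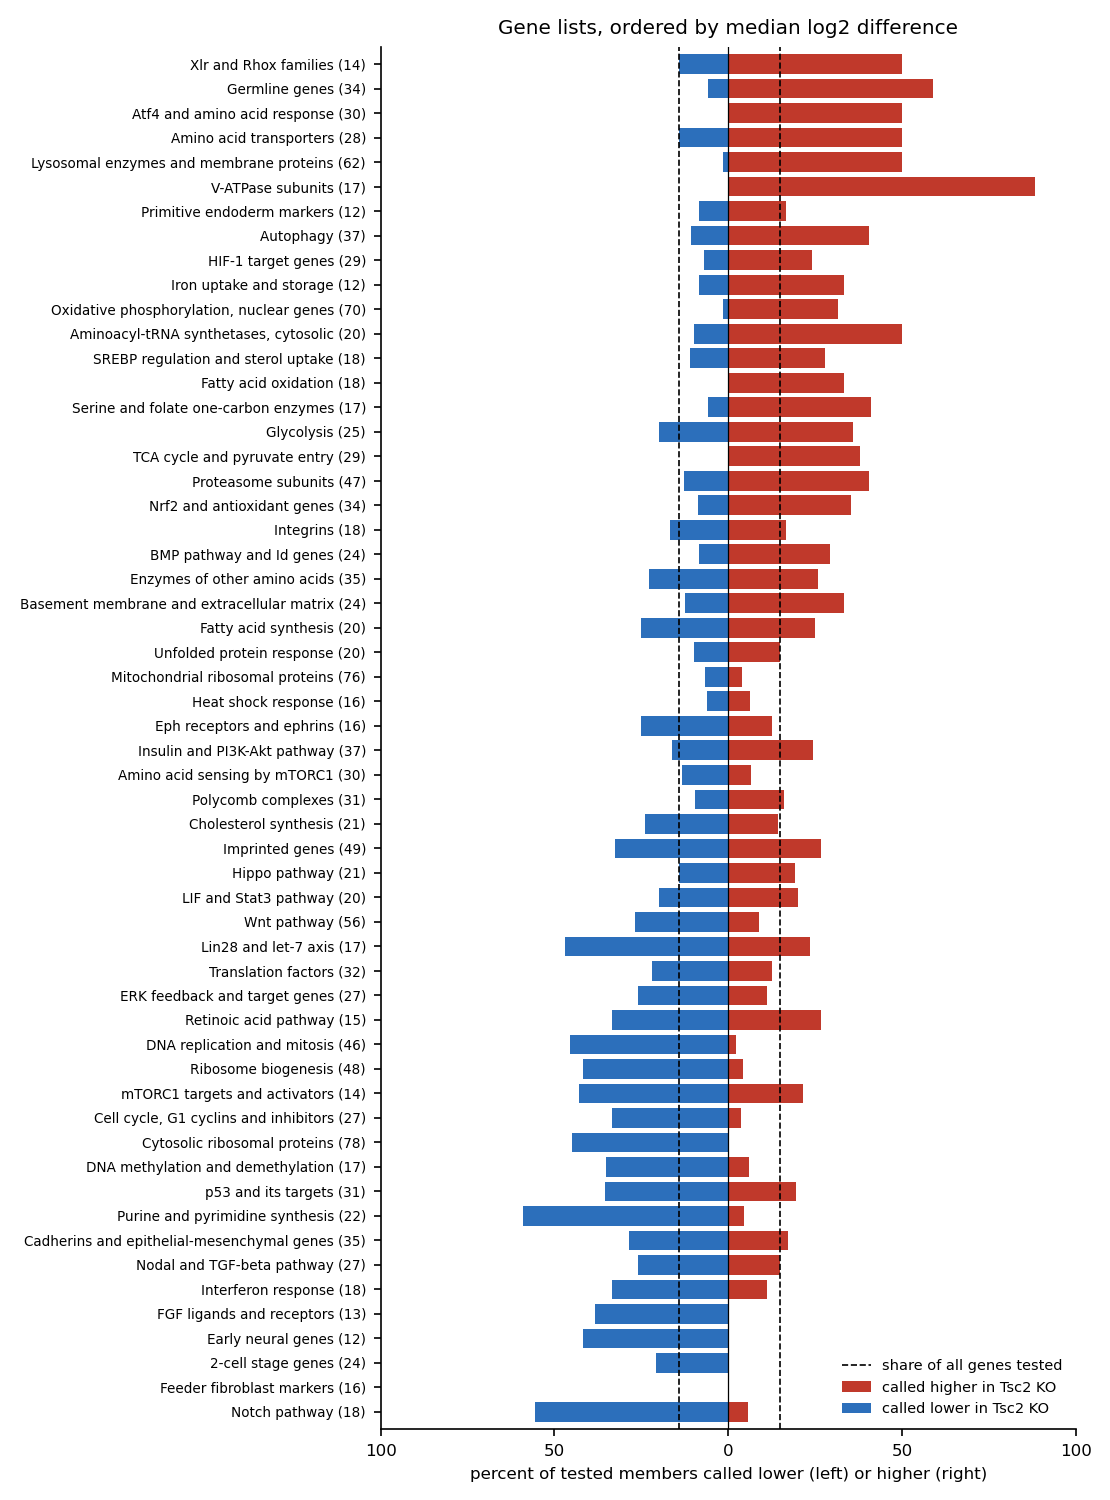
Share of the tested members of each gene list called higher (red, right) or lower (blue, left) in Tsc2 KO against wild-type at an adjusted p under 0.05, for lists with at least 12 tested members (number in brackets), ordered by median log2 difference. Dashed lines mark the shares over all genes tested, 14.9% higher and 14.2% lower. The V-ATPase and germline lists extend furthest to the right, and the purine and pyrimidine and Notch lists furthest to the left.

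Genes of the lysosome were higher in Tsc2 KO. Of 65 genes for lysosomal enzymes, membrane proteins and their transcription factors, 62 were tested, 31 rose and 1 fell, and the median log2 difference was 0.35. All 17 tested subunits of the V-ATPase, the proton pump that acidifies the lysosome, had log2 differences above 0, 15 of them rose and the median was 0.35. These counts compare with 14.9% higher and 14.2% lower over all genes. Without wild-type replicate 1 there were 19 lysosomal and 5 V-ATPase rises, and without Tsc2 KO replicate 2 there were 18 and 7. 1 member, Lgmn, lies in the chromosome 12 segment.

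Among the lysosomal enzymes and their helpers, Gm2a, the activator of GM2 ganglioside breakdown, measured 13.3 and 11.7 CPM in wild-type and 25.6 and 28.6 CPM in Tsc2 KO. The Tsc2 KO libraries lay above both wild-type libraries without overlap, at a log2 difference of 1.11 ± 0.14 (adjusted p = 0.00014). The protease cathepsin C gene Ctsc went from 4.996 and 5.03 to 9.37 and 11.3 CPM (1.04 ± 0.20, adjusted p = 0.0023), and cathepsin D, encoded by Ctsd, from 196 and 219 to 305 and 338 CPM (0.63 ± 0.07, adjusted p = 7.4e-05). Npc2, which carries cholesterol out of the lysosome, rose from 119.7 and 134 to 239 and 249 CPM (0.95 ± 0.08, adjusted p = 5.5e-06). Again no wild-type library reached a Tsc2 KO library. Lamp1, the main structural membrane protein, rose by less, with a log2 difference of 0.29 (adjusted p = 0.021, but 0.21 without wild-type replicate 1 and 0.19 without Tsc2 KO replicate 2, with differences of 0.18 and 0.19). The tetraspanin gene Cd63 rose by 1.03 (adjusted p = 0.0045). Of the acid hydrolase genes whose loss causes storage disease, Hexa (0.85), Gaa (0.81), Psap (0.81) and Asah1 (0.97) all rose. Mcoln1, the lysosomal calcium channel, measured 26.1 and 31.6 CPM in wild-type and 27.6 and 34.6 CPM in Tsc2 KO and did not pass the test (adjusted p = 0.57).

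In the proton pump, 8 of 8 tested subunits of the cytosolic V1 sector and 7 of 9 of the membrane V0 sector and its accessory proteins rose. Atp6ap2, the accessory protein also called the prorenin receptor, measured 58.9 and 67.8 CPM in wild-type and 111 and 112 CPM in Tsc2 KO (log2 difference 0.82 ± 0.11, adjusted p = 0.00014). The catalytic subunit gene Atp6v1a differed by 0.55. Of the 3 transcription factor genes tested in the lysosomal list 1 rose and 1 fell. Tfe3, a MiT/TFE factor, fell from 146 and 151 CPM to 70.7 and 67.2 CPM (-1.10 ± 0.08, adjusted p = 1.8e-06), and it was the 1 lysosomal list member that fell. Tfeb stood at 7.45 and 6.23 CPM in wild-type and 8.73 and 11.01 CPM in Tsc2 KO (adjusted p = 0.074).

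The direction of the lysosomal lists differed between the 2 KOs. In Nprl2 KO against the same wild-type libraries the lysosomal median was -0.24 (1 higher, 13 lower) and the V-ATPase median -0.17 (0 higher, 2 lower). Compared directly, 41 lysosomal genes were called higher in Tsc2 KO than in Nprl2 KO and 2 lower, and 15 V-ATPase genes were called higher and 0 lower. Lamp1 was an example, with a log2 difference of -0.47 between Nprl2 KO and wild-type and of 0.76 between the KOs (adjusted p = 3.7e-05).

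Promoters of these genes are shown because many lysosomal genes are known to carry the CLEAR element, whose core TCACGTGA is bound by MiT/TFE factors. The motif reads the same on both strands, and it was searched in RefSeq promoters of GRCm38.p6 from 250 bases before to 50 bases after the start site. It was found in 2.1% of the 10883 tested genes with a promoter in the table. It was found in 7 of 51 lysosomal genes with a promoter (13.7%) and in 3 of 13 V-ATPase genes (23.1%). Of the 10 genes with a match, Ctsa, Ctsd, Gla, Cln3, Igf2r, Atp6v1a and Atp6v0d1 rose, and Mcoln1, Pip4p1 and Atp6v0e were not called. Over the full lists 31 of 62 lysosomal and 15 of 17 V-ATPase genes rose, and whether rises go with a match was not tested. The calls of Ctsa (0.35, adjusted p = 0.025) and Atp6v0d1 (0.29, adjusted p = 0.039) were lost without wild-type replicate 1 (0.27 and 0.35), Tsc2 KO replicate 1 (0.056 and 0.089) or Tsc2 KO replicate 2 (0.16 and 0.19) and with DESeq2 (0.0504 and 0.10), and that of Atp6v0d1 also with the wild-type and Tsc2 KO libraries alone (0.0502). The 3 called genes with the largest log2 difference and a match before the start site are printed 5′ to 3′ on the gene's strand, with each match in capitals.
Cln3, 128 bases at chr7:126583291-126583418, minus strand: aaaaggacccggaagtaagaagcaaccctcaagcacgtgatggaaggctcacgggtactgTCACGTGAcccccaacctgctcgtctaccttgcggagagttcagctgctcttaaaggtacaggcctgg
Ctsd, 128 bases at chr7:142387859-142387986, minus strand: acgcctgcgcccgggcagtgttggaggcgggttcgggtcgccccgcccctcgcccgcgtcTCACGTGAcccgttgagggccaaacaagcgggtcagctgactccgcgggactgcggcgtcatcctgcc
Gla, 90 bases at chrX:134601166-134601255, minus strand: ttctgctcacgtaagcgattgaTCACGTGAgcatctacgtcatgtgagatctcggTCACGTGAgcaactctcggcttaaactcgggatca
The match ends 114 bases before the start site in Cln3 and 91 bases before it in Ctsd, and the promoter of Gla holds 2 matches, which end 220 and 187 bases before its start site. Cln3, which encodes a lysosomal membrane protein, differed by 0.88 and Gla, encoding alpha-galactosidase A, by 0.62 on the log2 scale (adjusted p = 0.0048, or 0.051 without Tsc2 KO replicate 2). A match is only a run of letters and does not show binding.

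Autophagy genes, which build the vesicles that deliver cargo to the lysosome, were partly higher. Of 37 tested, 15 rose and 4 fell, with a median of 0.22. The rises were most frequent among the LC3 family and cargo receptors, where 9 of 13 rose and 2 fell. Gabarapl2, an LC3 family member, measured 145 and 119.7 CPM in wild-type and 295 and 304 CPM in Tsc2 KO. That is a 2.25-fold difference (log2 1.17 ± 0.09, adjusted p = 3e-06). The cargo receptor gene Sqstm1 rose from 195 and 196 to 291 and 339.5 CPM (0.69 ± 0.08, adjusted p = 4.3e-05), and the mitophagy receptor Bnip3 fell from 36.9 and 35.2 to 21.3 and 17.97 CPM (-0.88 ± 0.12, adjusted p = 0.00021). Atg9a (1.15), Atg4b and Atg16l1 lie in the chromosome 1 segment and Atg2b (-0.78) in the chromosome 12 segment. Without these 4 genes, 12 of 33 rose and 3 fell.

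**Figure D3:**
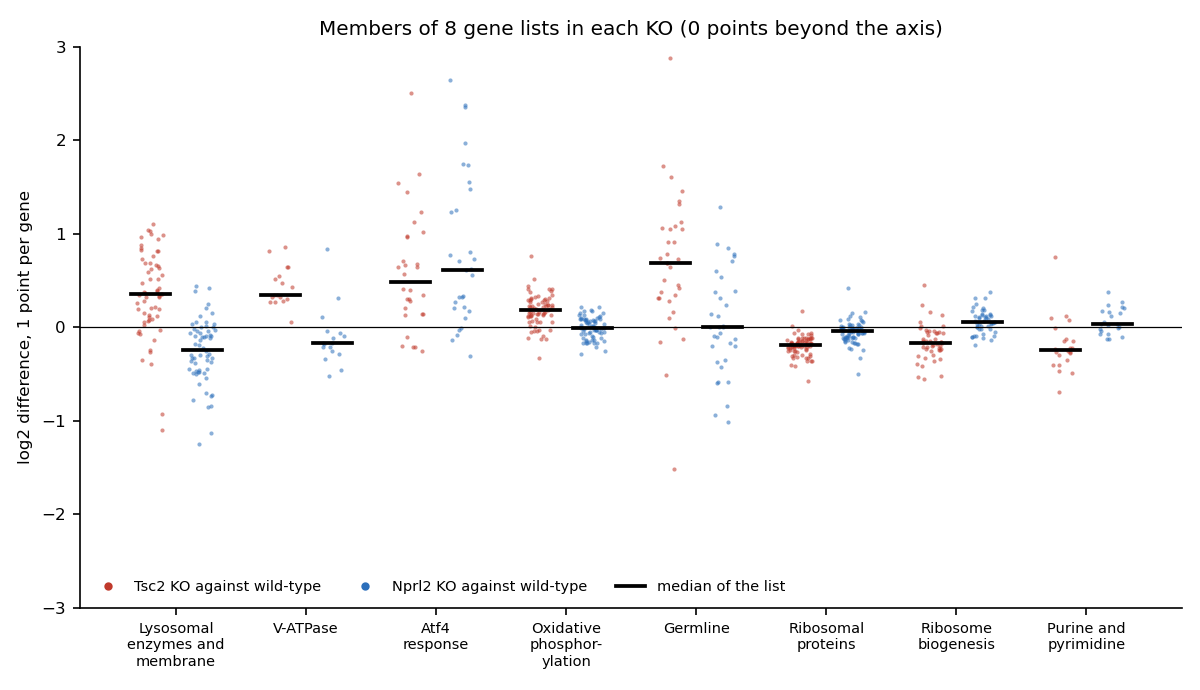
Log2 difference of every tested member of 8 gene lists in Tsc2 KO (red) and Nprl2 KO (blue) against the same 2 wild-type libraries, with the list median as a black line. The lysosomal and V-ATPase medians are 0.35 in Tsc2 KO and -0.24 and -0.17 in Nprl2 KO, and that of the amino acid response is 0.49 in Tsc2 KO and 0.62 in Nprl2 KO.

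Cytosolic ribosomal protein genes were slightly lower. None of 78 tested cytosolic ribosomal protein genes rose and 35 fell, with a median log2 difference of -0.19 and 76 of 78 below 0. Rps27 gave the largest fall among them, below wild-type in both Tsc2 KO libraries (log2 difference -0.58 ± 0.13, adjusted p = 0.014), and Rpl28 went from 705 and 734 to 537 and 544 CPM (-0.41 ± 0.07, adjusted p = 0.00096). The count of falls was 55 with no filter on low counts, and between 7 and 22 when single libraries were left out, and Rps27 was lost without any 1 of the 4 libraries (adjusted p of 0.056 to 0.078). Ribosomal protein genes have many processed pseudogenes, and how the transcript quantification shared their reads was not tested.

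Ribosome assembly and nucleotide supply moved in the same direction. Of 48 genes for RNA polymerase I and rRNA processing, 20 fell and 2 rose (median -0.16), and both that rose, Ncl and Taf1a, lie in the chromosome 1 segment. The count of falls was 12 without wild-type replicate 1, 9 without wild-type replicate 2 and 7 without Tsc2 KO replicate 2. Nop10, a component of the pseudouridylation snoRNPs, fell from 86.02 and 84.1 to 58.7 and 57.5 CPM (-0.55 ± 0.09, adjusted p = 0.00065), and the processing factor gene Utp14a from 177 and 177 to 132 and 112 CPM (-0.53 ± 0.08, adjusted p = 0.00043). Of 22 purine and pyrimidine synthesis genes, 13 fell and 1 rose (median -0.24), the riser being Adss in the chromosome 1 segment. Prps1, which makes the ribose donor for both pathways, stood at 126 and 119 CPM in wild-type and 80.3 and 70.7 CPM in Tsc2 KO (-0.70 ± 0.08, adjusted p = 6.5e-05). The purine enzyme genes Gart (-0.49) and Pfas (-0.47) and the pyrimidine enzyme gene Cad (-0.40, adjusted p = 0.00031) fell as well. Without Tsc2 KO replicate 2 the list had 6 falls. Odc1, the first enzyme of polyamine synthesis, fell from 1154 and 1131 to 719 and 675 CPM (-0.71 ± 0.06, adjusted p = 6.4e-06), and the log2 difference of Sms, which makes spermine, was -0.80. The Myc gene itself measured 58.95 and 44.7 CPM in wild-type and 50.9 and 35.4 CPM in Tsc2 KO (adjusted p = 0.36, or 0.042 at a log2 difference of -0.56 without Tsc2 KO replicate 1).

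Within the mTORC1 pathway, most transcripts of the kinase complexes were not called. Of 11 subunits of mTORC1 and mTORC2 1 rose and 1 fell. The riser was Akt1s1, an mTORC1 inhibitor (0.39, adjusted p = 0.0075, or 0.053 without wild-type replicate 2). The gene that fell was Mtor, from 120.4 and 121 to 101 and 97.2 CPM (-0.28 ± 0.08, adjusted p = 0.016), with an adjusted p of 0.13 without Tsc2 KO replicate 2, 0.059 without wild-type replicate 1, 0.062 without wild-type replicate 2 and 0.096 with limma on log2(TPM + 1). Among 14 targets and activators 3 rose and 6 fell. The risers included Pdcd4, an inhibitor of the helicase eIF4A (0.81), and the translational repressor gene Eif4ebp1 (0.41), and the falls included Eef2k, the kinase that inhibits elongation (-0.84), and the initiation factor gene Eif4b (-0.49). Of 30 genes for amino acid sensing 2 rose and 4 fell, no more than the shares over all genes (14.9% higher and 14.2% lower). Castor1, the arginine sensor, fell from 50.3 and 47.2 CPM to 16.02 and 16.3 CPM (-1.59 ± 0.13, adjusted p = 5.8e-06), whereas the 2 Sestrin genes called moved apart, Sesn1 by 1.09 and Sesn3 by -0.91. Eif2s2, a subunit of the initiation factor eIF2, nearly doubled, from 718 and 766 to 1384 and 1372 CPM (0.89 ± 0.07, adjusted p = 3e-06), in a list of 32 translation factors with 4 rises and 7 falls.

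Upstream of the complex, the insulin and PI3K-Akt list had 9 rises and 6 falls among 37 genes. Igfbp2, which binds insulin-like growth factors, rose from 168 and 153 to 303 and 299.6 CPM (0.91 ± 0.07, adjusted p = 3.1e-06). Its Tsc2 KO libraries stood apart from wild-type. Akt1 fell (-1.28), but it lies in the chromosome 12 segment, and without segment genes the list had 7 rises and 5 falls among 31. Compared with Nprl2 KO, which shares the chromosome 12 shift, Akt1 was still lower in Tsc2 KO (direct log2 difference -0.95, adjusted p = 7e-05). Neither Gsk3 gene passed the test, Gsk3a standing at 113 and 111 CPM in wild-type and 106 and 110.0 CPM in Tsc2 KO (adjusted p = 0.64). Gsk3b measured 82.6 and 83.04 CPM in wild-type and 75.04 and 87.01 CPM in Tsc2 KO (adjusted p = 0.84), with overlapping libraries.

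The amino acid response was higher. Atf4 is the transcription factor through which cells respond to amino acid shortage and through which mTORC1 is known to raise amino acid supply. Of 30 tested genes of the list 15 rose and 0 fell, with a median of 0.49. Atf4 itself measured 148 and 146 CPM in wild-type and 243 and 236 CPM in Tsc2 KO (0.70 ± 0.06, adjusted p = 9.2e-06). Nupr1, a stress-induced chromatin protein, gave the largest rise, from 2.09 and 1.56 to 10.2 and 10.9 CPM (2.51 ± 0.22, adjusted p = 1e-05). The asparagine synthetase gene Asns stood at 254 and 304 CPM in wild-type and 494 and 606 CPM in Tsc2 KO (0.98 ± 0.17, adjusted p = 0.0092). In all of these genes the groups did not overlap. The pseudokinase Trib3 (1.13) and the glutathione-degrading enzyme Chac1 (1.45) rose too, and Atf3 (1.64) lies in the chromosome 1 segment. Without segment genes the count was 13 of 27. Nprl2 KO against the same wild-type libraries gave 14 rises and 0 falls with a median of 0.62. Nupr1 stood at 11.3 and 11.9 CPM in Nprl2 KO and did not pass the direct test between the KOs (log2 difference -0.14, adjusted p = 0.58).

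The C/EBP-ATF element, through which Atf4 is known to act, is shown for the same reason. Its core TGATGCAA, searched on both strands, was present in 0.744% of the tested genes with a promoter. In the Atf4 list 8 of 27 genes with a promoter held it (29.6%), as did 4 of 13 cytosolic tRNA synthetase genes (30.8%) and 3 of 23 amino acid transporter genes (13%). The Atf4 list was made of regulators and targets of this response, so its share of matches only describes the list. Of all 30 tested genes of the Atf4 list 15 rose and 0 fell, and whether rises go with a match was not tested. Of the 8 with a match 7 were tested, of which Atf3, Nupr1, Chac1 and Vldlr rose and none fell. The 3 with the largest log2 difference and a match before the start site are printed 5′ to 3′ on the gene's strand, with the match, here in the opposite orientation, in capitals.
Nupr1, 128 bases at chr7:126625513-126625640, minus strand: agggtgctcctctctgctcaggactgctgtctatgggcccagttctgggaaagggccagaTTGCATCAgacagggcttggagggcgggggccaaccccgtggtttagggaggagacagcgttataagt
Atf3, 128 bases at chr1:191183376-191183503, minus strand: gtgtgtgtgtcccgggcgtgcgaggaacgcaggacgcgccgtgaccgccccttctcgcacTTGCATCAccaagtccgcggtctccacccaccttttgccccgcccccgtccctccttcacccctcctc
Vldlr, 118 bases at chr19:27216770-27216887, plus strand: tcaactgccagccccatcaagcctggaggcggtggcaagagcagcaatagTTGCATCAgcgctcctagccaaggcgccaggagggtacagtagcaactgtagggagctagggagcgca
The matches end 102, 102 and 192 bases before the start site, in that order. Vldlr, a lipoprotein receptor, differed by 1.54 (adjusted p = 0.013), a call lost without wild-type replicate 1 (0.12) or Tsc2 KO replicate 1 (0.057), with DESeq2 (0.074) and with limma on log2(TPM + 1) (0.094).

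Genes for making and moving amino acids were higher along with it. All 3 enzymes of serine synthesis rose, Phgdh from 87.3 and 88.4 to 147 and 131 CPM (0.66 ± 0.08, adjusted p = 6.2e-05) and Psat1 from 150.1 and 154 to 248 and 236 CPM (0.67 ± 0.08, adjusted p = 5.6e-05). In the mitochondrial folate cycle Mthfd2 (0.68) and Shmt2 (0.69) rose. Psat1 and Mthfd2 were lower in Tsc2 KO than in Nprl2 KO, by direct log2 differences of -0.58 (adjusted p = 9.9e-05) and -0.55 (adjusted p = 0.00046). Of 20 cytosolic aminoacyl-tRNA synthetase genes 10 rose and 2 fell, and off the segments 7 of 16 rose and 1 fell. Nars, which charges the asparagine tRNA, rose by 0.62 and Cars, for cysteine, by 0.61, while Vars, for valine, fell (-0.41). Of 28 amino acid transporter genes 14 rose and 4 fell, with a median of 0.38. Slc1a1, a glutamate transporter, rose from 2.45 and 2.16 to 9.21 and 14.8 CPM (2.37 ± 0.37, adjusted p = 0.0011). The cationic amino acid transporter Slc7a1 rose by 1.23 and the glycine transporter Slc6a9 by 1.51. Slc38a2, the glutamine transporter known to respond to starvation, went the other way, from 541 and 526 to 352 and 365 CPM (-0.57 ± 0.06, adjusted p = 3.3e-05), and differed from Nprl2 KO by -1.18 (adjusted p = 1e-07). The leucine exchanger subunits Slc7a5 and Slc3a2 were not called (0.14 and -0.05). Enzymes of other amino acids had 9 rises and 8 falls of 35, and the serine and folate list 7 and 1 of 17. Ass1, which makes argininosuccinate on the way to arginine, rose from 167 and 197 to 428 and 479 CPM, a 2.499-fold difference (1.32 ± 0.09, adjusted p = 5e-06), and the branched-chain transaminase gene Bcat1 by 0.82.

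Mitochondrial energy genes were higher by small amounts. Of 70 nuclear genes for oxidative phosphorylation 22 rose and 1 fell, with a median of 0.19 and 60 of 70 above 0. This count was sensitive to the data used, with 7 to 11 rises when single libraries were left out and 41 by limma on TPM. Ndufa10, the member with the largest rise, lies in the chromosome 1 segment. Off the segments Ndufb10 of complex I measured 36.9 and 46.02 CPM in wild-type and 54.5 and 57.5 CPM in Tsc2 KO (0.44 ± 0.13, adjusted p = 0.023), a call lost without wild-type replicate 1 (0.2, with a log2 difference of 0.28), Tsc2 KO replicate 1 (0.059) or Tsc2 KO replicate 2 (0.13). Of 29 genes of the TCA cycle and pyruvate entry 11 rose and 0 fell (8 of 26 off the segments). The NADP-dependent isocitrate dehydrogenase gene Idh2 went from 92.8 and 81.8 to 191 and 188 CPM, a 2.17-fold difference (1.11 ± 0.09, adjusted p = 3.9e-06). Pdk4, the kinase that shuts off pyruvate dehydrogenase, rose by 1.06 and the pyruvate carrier gene Mpc1 by 0.64. In fatty acid oxidation 6 of 18 genes rose and 0 fell. Slc25a20, which brings acylcarnitines into the mitochondrion, stood at 28.2 and 30.4 CPM in wild-type and 69.4 and 83.8 CPM in Tsc2 KO (1.39 ± 0.11, adjusted p = 5e-06), and Cpt1a, the rate-limiting enzyme, at 48.5 and 61.95 CPM against 96.9 and 124 CPM (1.004 ± 0.16, adjusted p = 0.0023). Cpt1a was lower in Nprl2 KO than in wild-type (-0.81, adjusted p = 0.03). Mitochondrial ribosomal protein genes did not share the shift, with 3 rises (1 off the segments) and 5 falls among 76 and a median of 0.00.

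Glycolysis was mixed. The list had 9 rises and 5 falls among 25 genes. Hk1, which phosphorylates glucose at the entry of the pathway, rose from 53.1 and 54.8 to 118 and 129 CPM (1.20 ± 0.08, adjusted p = 1.9e-06), and the platelet phosphofructokinase gene Pfkp from 86.4 and 73.8 to 192 and 174 CPM (1.19 ± 0.11, adjusted p = 7.9e-05). Isoforms moved in opposite directions: the liver phosphofructokinase gene Pfkl fell (-0.41), and lactate dehydrogenase Ldha fell (-0.34) while Ldhb rose (0.82). Slc16a3, a lactate exporter, fell from 49.96 and 23.9 to 3.84 and 3.98 CPM (-3.25 ± 0.64, adjusted p = 0.035), with the wild-type libraries wide apart and the adjusted p at 0.12 without Tsc2 KO replicate 1 and 0.14 without Tsc2 KO replicate 2. The hypoxia factor gene Hif1a (-0.04) and the glucose transporter gene Slc2a1 (0.07) were not called, and among the 29 genes of the HIF-1 list 7 rose, Vegfa among them (1.14), and 2 fell.

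Lipid synthesis genes did not move as 1 group. The regulator gene Srebf1 measured 75.4 and 69.7 CPM in wild-type and 81.8 and 82.2 CPM in Tsc2 KO (adjusted p = 0.25), and Srebf2 measured 337 and 306 CPM against 323 and 319.9 CPM (adjusted p = 1). Neither was called. Of 21 cholesterol synthesis genes 3 rose and 5 fell, with Hmgcs1 lower (-0.30, adjusted p = 0.0052, or 0.065 without wild-type replicate 1). Of 20 fatty acid synthesis genes 5 rose and 5 fell. Fasn, the fatty acid synthase, went from 696 and 664 to 409 and 442 CPM (-0.67 ± 0.07, adjusted p = 3.2e-05), below wild-type in both libraries, and Mid1ip1, an activator of acetyl-CoA carboxylase, fell too (-1.02). Malic enzyme Me1, a source of NADPH, rose by 0.76 and the desaturase gene Fads1 by 0.53. In the pentose phosphate pathway 2 of 7 genes rose and 2 fell, and in SREBP regulation and sterol uptake 5 of 18 rose and 2 fell (3 of 16 and 2 off the segments, Insig2 and Soat1 lying on chromosome 1).

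Protein and redox upkeep was partly higher. Of 47 proteasome genes 19 rose and 6 fell (18 and 5 of 45 off the segments). In the core 20S particle 7 of 14 rose, Psmb3 from 206 and 216 to 273 and 284 CPM (0.40 ± 0.06, adjusted p = 0.00054). Psmd1, with a log2 difference of 0.73, lies in the chromosome 1 segment, and the immunoproteasome subunit gene Psmb10 fell (-0.77). In Nprl2 KO 14 proteasome genes rose and 2 fell against the same wild-type libraries. Of 34 Nrf2 and antioxidant genes 12 rose and 3 fell (10 and 3 of 32 off the segments), led by Gstm5, a glutathione transferase (1.55). The glutathione synthetase gene Gss rose from 43.3 and 50.3 to 114 and 126 CPM (1.36 ± 0.10, adjusted p = 2e-06). In iron handling 4 genes rose and 1 fell of 12 (3 and 1 of 11 off the segments). Ftl1, the ferritin light chain, rose from 2429 and 2628 to 3709 and 3946 CPM (0.60 ± 0.06, adjusted p = 3.6e-05). The iron exporter gene Slc40a1 fell from 9.63 and 9.23 to 2.56 and 1.81 CPM (-2.11 ± 0.22, adjusted p = 2.6e-05). The unfolded protein response (3 rises, 2 falls of 20) and heat shock lists (1 and 1 of 16) had few calls.

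Calls among cell cycle genes were more often lower, those of inhibitors included. Of 46 replication and mitosis genes 21 fell and 1 rose (Mcm6, in the chromosome 1 segment), and in the mitotic part 14 of 19 fell with a median of -0.30. The falls numbered 11 without Tsc2 KO replicate 2. Mki67, the proliferation antigen Ki-67, went from 335 and 328 to 203 and 195 CPM (-0.74 ± 0.06, adjusted p = 6.5e-06), and it was lower in Nprl2 KO too (-0.50, adjusted p = 0.0006). The mitotic kinesin gene Kif11 went from 243 and 254 to 179.7 and 174 CPM (-0.49 ± 0.06, adjusted p = 0.00014). Among 27 G1 regulators 9 fell and 1 rose. Of these falls 6 were among 18 inhibitors and pocket proteins, and 3, with the rise, among 9 cyclins and kinases. The D-type cyclins differed among themselves, Ccnd1 falling from 197 and 188 to 118 and 93.2 CPM (-0.87 ± 0.11, adjusted p = 0.00039) and Ccnd3 rising from 103 and 79.5 to 159 and 152 CPM (0.76 ± 0.17, adjusted p = 0.023, but 0.068 and 0.065 without Tsc2 KO replicate 1 and 2), while Ccnd2 varied widely between libraries (25.3 and 15.3 CPM in wild-type, 16.4 and 5.36 CPM in Tsc2 KO, adjusted p = 0.35, or 0.0027 at a log2 difference of -1.94 without Tsc2 KO replicate 1). The p53 list had 6 rises and 11 falls among 31 genes (4 and 11 among 28 off the segments). Its pro-apoptotic targets Bbc3 (from 28.6 and 29.8 to 14.4 and 14.7 CPM; -1.003 ± 0.12, adjusted p = 7.8e-05) and Pmaip1 (-1.06) fell, and the cell cycle inhibitor gene Cdkn1a was not called (0.37). In Nprl2 KO the same list had 10 rises and 0 falls, and 20 of its genes were called lower and 2 higher in Tsc2 KO than in Nprl2 KO.

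In the FGF, Wnt and Notch lists calls were more often lower than higher, with most genes of the FGF and Wnt lists not called. mESCs receive FGF4 as an autocrine signal to leave the naive state, and Wnt and LIF hold them in it. Of 13 FGF ligands, receptors and cofactors 5 fell and 0 rose. Fgfr2 went from 50.9 and 52.6 to 13.5 and 15.6 CPM, a 3.54-fold difference (-1.83 ± 0.11, adjusted p = 8.2e-07), and the ligand gene Fgf15 from 8.08 and 5.87 to 0.561 and 0.797 CPM (-3.35 ± 0.42, adjusted p = 0.00021). ERK targets were divided. The inhibitor Spry2 fell (-1.15), the phosphatase gene Dusp9 rose from 34.1 and 28.6 to 68.2 and 83.8 CPM (1.27 ± 0.12, adjusted p = 1.7e-05), Etv4 rose (0.76), and Dusp6 was not called (0.07), in a list with 3 rises and 7 falls of 27. In the LIF and Stat3 list (4 rises, 4 falls of 20) Pim2, a survival kinase, showed the largest fall, from 183 and 161 to 30.8 and 27.02 CPM (-2.58 ± 0.09, adjusted p = 1.4e-08), whereas Stat3 itself rose by 0.54. Pim2 was 0.49 higher in Nprl2 KO than in wild-type on the log2 scale (adjusted p = 0.0049).

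In the Wnt list 15 of 56 genes fell and 5 rose. Lef1, a nuclear effector of beta-catenin, went from 64.6 and 54.9 to 12.6 and 10.7 CPM, 5.15-fold lower (-2.36 ± 0.12, adjusted p = 2.2e-07). The ligand gene Wnt8a went from 5.904 and 5.39 to 0.961 and 1.01 CPM (-2.51 ± 0.33, adjusted p = 0.00017), and the receptor genes Fzd1 (-1.83), Fzd2 (-1.02), Fzd7 (-0.61) and Fzd8 (-1.79) fell. The rises included inhibitors, with the secreted antagonist Sfrp1 from 37.8 and 33.5 to 82.4 and 76.9 CPM (1.16 ± 0.11, adjusted p = 1.8e-05) and the membrane inhibitor gene Apcdd1 by 1.21. The commonly used target Axin2 measured 34.9 and 50.7 CPM in wild-type and 25.5 and 41.95 CPM in Tsc2 KO, with overlapping libraries (adjusted p = 0.56), and it passed the test with replicate number as a block (-0.35, adjusted p = 0.0057).

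Notch genes fell in 10 of 18 cases and rose in 1, with a median of -0.75, and there were 6 falls without Tsc2 KO replicate 1. The ligand gene Jag1 went from 20.6 and 23.5 to 8.89 and 7.39 CPM (log2 difference -1.44 ± 0.17, adjusted p = 8.7e-05), the glycosyltransferase gene Lfng from 2.54 and 3.24 to 0.4 and 0.652 CPM (-2.41 ± 0.42, adjusted p = 0.0011), and the receptor genes Notch2 (-0.88) and Notch3 (-1.07) fell. Jag2 (-1.57) fell too and lies in the chromosome 12 segment. Hes1, a repressor downstream of Notch and of other signals, was the exception, rising from 8.08 and 9.71 to 26.8 and 31.6 CPM (1.72 ± 0.16, adjusted p = 1.3e-05). Compared directly with Nprl2 KO, 11 Notch genes were called lower and 1 higher.

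BMP genes leaned upwards, with 7 rises and 2 falls among 24. The ligand gene Bmp4 stood at 12.1 and 13.3 CPM in wild-type and 37.2 and 36.7 CPM in Tsc2 KO (1.55 ± 0.13, adjusted p = 5.2e-06), and the target Id2 at 4.18 and 3.71 CPM against 8.49 and 11.2 CPM (1.31 ± 0.23, adjusted p = 0.001). Of 27 Nodal and TGF-beta genes 4 rose and 7 fell. Nodal itself measured 94.6 and 100.4 CPM in wild-type and 92.98 and 104 CPM in Tsc2 KO (adjusted p = 0.89). Its target Lefty2 fell (-1.20, adjusted p = 0.014, or 0.082 without Tsc2 KO replicate 2, with a log2 difference of -0.77 without wild-type replicate 2) although it lies in the chromosome 1 segment, and the Smad co-repressor gene Skil went from 111 and 93.5 to 53.3 and 46.3 CPM (-1.04 ± 0.13, adjusted p = 0.00048). In the Hippo list (4 rises, 3 falls of 21) Tead4 rose (0.87) and Tead3 fell (-1.62). In the retinoic acid list (4 and 5 of 15) the binding protein gene Crabp2 fell from 7.45 and 7.55 to 2.803 and 2.75 CPM (-1.43 ± 0.22, adjusted p = 0.00043).

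Epithelial genes gave some of the largest falls. Esrp1, a splicing regulator of epithelial cells, measured 86.3 and 93.6 CPM in wild-type and 7.29 and 6.303 CPM in Tsc2 KO, a 13.2-fold difference (-3.73 ± 0.11, adjusted p = 3e-09). Grhl2, a transcription factor of epithelia, went from 125 and 103 to 22.9 and 22.5 CPM (-2.33 ± 0.11, adjusted p = 1.5e-07), and the tight junction gene Cldn6 from 41.5 and 51.2 to 7.69 and 11.5 CPM (-2.26 ± 0.19, adjusted p = 5.3e-05). The groups were far apart in all 3 genes. E-cadherin, encoded by Cdh1, fell from 482 and 554 to 304 and 352 CPM (-0.66 ± 0.09, adjusted p = 0.0003), and Epcam (-1.45) and Cldn7 (-1.52) fell. Not every epithelial gene was lower: of 20 tested, 8 fell and 3 rose, the keratin gene Krt18 from 7.36 and 11.5 to 19.9 and 30.8 CPM (1.46 ± 0.34, adjusted p = 0.024, or 0.13 without wild-type replicate 1) and the desmosomal Dsp by 0.73. Mesenchymal genes did not rise as a group, with 3 rises and 2 falls of 15. Vim, the intermediate filament of mesenchymal cells, was not called (-0.34, adjusted p = 0.34), but without Tsc2 KO replicate 1 it was (-0.70, adjusted p = 0.0016). Fibroblast genes in this list can also come from feeders, whose summed marker level differed between the Tsc2 KO libraries as given above.

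At the cell surface, the Eph receptor Epha1 fell from 23.5 and 26.7 to 4.64 and 5.94 CPM (-2.23 ± 0.19, adjusted p = 6.2e-06) and the ephrin genes Efnb2 (-1.68) and Efna2 (-1.38) fell, in a list with 2 rises (1 off the segments) and 4 falls of 16. Integrins had 3 rises and 3 falls of 18. Of 24 basement membrane genes 8 rose and 3 fell, and off the segments 5 of 21 rose. The laminin genes Lama3 (1.32) and Lamb3 (1.90, in the chromosome 1 segment) rose, whereas Lamb1 fell from 104 and 116 to 64.4 and 66.8 CPM (-0.75 ± 0.09, adjusted p = 9e-05). The interferon list had 2 rises and 6 falls among 18. Ifitm1 fell from 50.4 and 44.7 to 15.7 and 16.1 CPM (-1.58 ± 0.12, adjusted p = 2.4e-06) and the transcription factor gene Irf1 also fell (-1.19), while B2m, the light chain of MHC class I, rose from 19.5 and 15.8 to 44.2 and 41.6 CPM (1.27 ± 0.14, adjusted p = 3.8e-05).

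Germline genes were higher. Of 41 genes of meiosis, the piRNA pathway and germ cells, 34 were tested, 20 rose and 2 fell, and the median was 0.69. Stra8, the gatekeeper of meiosis, stood at 2.18 and 1.32 CPM in wild-type and 11.9 and 14.6 CPM in Tsc2 KO (2.88 ± 0.28, adjusted p = 1.8e-05). Dazl, a germ cell RNA-binding protein, rose from 21.9 and 13.4 to 35.96 and 38.5 CPM (1.05 ± 0.19, adjusted p = 0.003), and the bromodomain gene Brdt from 1.64 and 1.56 to 5.53 and 5.14 CPM (1.73 ± 0.29, adjusted p = 0.00087). These levels are low, but no wild-type library reached a Tsc2 KO library. Piwil4 (1.46), Mael (1.36, in the chromosome 1 segment), the synaptonemal gene Sycp3 (0.73) and the cohesin gene Rec8 (1.07) rose, and Tdrd12 fell from 45.1 and 47.1 to 18.98 and 13.3 CPM (-1.52 ± 0.14, adjusted p = 2e-05). Against the same wild-type libraries Nprl2 KO had 3 rises and 2 falls in this list, and 19 of its genes stood above and 4 below their Nprl2 KO level.

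The X-linked Xlr and Rhox clusters, expressed in testis and placenta, had 7 rises and 2 falls among 14 tested of 33. Xlr3a rose from 3.09 and 4.31 to 29.1 and 26.3 CPM (2.92 ± 0.20, adjusted p = 1.5e-06) and Rhox13 from 1.09 and 1.798 to 10.7 and 13.3 CPM (3.08 ± 0.28, adjusted p = 1.1e-05). Xlr genes are near-identical copies, so the share of each copy is uncertain. Most genes of the 2-cell stage were not called, 5 of 24 falling and 0 rising, beside 14.2% lower over all genes tested. Their median was -0.52, with 21 of 24 below 0. Zscan4a, 1 of a family of near-identical copies, went from 82.8 and 51.4 to 29.2 and 27.96 CPM (-1.24 ± 0.22, adjusted p = 0.01), but the wild-type libraries themselves were wide apart, and the adjusted p was 0.058 without Tsc2 KO replicate 2.

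Chromatin and imprinting genes moved in both directions. Of 17 DNA methylation genes 6 fell and 1 rose. Dppa3, which protects the genome from demethylation in the zygote, fell from 16.4 and 20.5 to 3.92 and 4.27 CPM (-2.16 ± 0.23, adjusted p = 9.4e-05). The imprint-protecting Zfp57 rose from 368 and 343 to 628 and 591 CPM (0.78 ± 0.14, adjusted p = 0.008). Without wild-type replicate 2 the log2 difference of Zfp57 was 0.73 and its call was lost. Uhrf1 (-0.17) and Dnmt3l (-0.30) were not called. Of 49 imprinted genes 13 rose and 16 fell, 4 of the falls in the chromosome 12 segment. The largest falls of the list were there, in 3 noncoding RNA genes of the Dlk1-Dio3 imprinted cluster. Of the 5 genes of that cluster tested, 4 fell and 1 rose. Meg3 went from 136 and 135 to 14.3 and 4.202 CPM (-3.89 ± 0.53, adjusted p = 0.015) and Rian from 214 and 184 to 10.6 and 3.26 CPM (-4.88 ± 0.55, adjusted p = 0.0097), calls that were lost without wild-type replicate 1 (0.10 and 0.074) or replicate 2 (0.09 and 0.062), and Mirg, with 102 and 68 counts in wild-type, had 3 and 2 counts in Tsc2 KO. In Nprl2 KO, set against the same wild-type libraries, Meg3 measured 11.1 and 10.6 CPM and Rian 5.297 and 9.52 CPM. The neighbours H19 and Igf2 rose, H19 from 13.3 and 7.19 to 53.8 and 78.4 CPM (2.66 ± 0.31, adjusted p = 0.0021) and Igf2 from 27.7 and 14.3 to 55.5 and 60.2 CPM (1.44 ± 0.27, adjusted p = 0.012, or 0.06 with replicate number as a block). In the Lin28 and let-7 axis (4 rises and 8 falls of 17) Hmga2, a let-7 target, rose from 11.5 and 12.5 to 46.4 and 47.96 CPM, 3.94-fold (1.98 ± 0.12, adjusted p = 9.5e-07). Lin28b, which blocks let-7, fell from 43.5 and 43.4 to 27.2 and 26.6 CPM (-0.69 ± 0.10, adjusted p = 0.00035), and Dicer1, which lies in the chromosome 12 segment, also fell (-1.11). Polycomb genes had 5 rises and 3 falls of 31, with the Polycomb-like Phf19 lower (-2.02).

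Of 12 early neural genes tested 5 fell and 0 rose, Sox3 from 5.27 and 3.35 to 0.641 and 0.942 CPM (-2.44 ± 0.40, adjusted p = 0.00076) and Pax6 from 16.9 and 11.5 to 2.88 and 0.797 CPM (-2.98 ± 0.52, adjusted p = 0.0078). Their summed level, with untested members, was 391.1 and 369.3 CPM in wild-type and 357.6 and 315.1 CPM in Tsc2 KO. Of 8 trophoblast markers 4 rose and 0 fell, Esx1 (1.52) and Tead4 among the risers, at a summed level of 81.98 and 115.1 CPM in wild-type and 87.01 and 105.3 CPM in Tsc2 KO, so the groups overlapped in the sum. Among 12 primitive endoderm markers 2 rose and 1 fell, Sparc rising from 288 and 251 to 519.9 and 471 CPM (0.88 ± 0.08, adjusted p = 1.1e-05). Primitive streak genes, 1 of 11 rising and 2 falling, summed to 27.36 and 34.73 CPM in wild-type and to 30.93 and 37.59 CPM in Tsc2 KO. Of 5 genes tested on chromosome Y, 3 rose in Tsc2 KO, among them Eif2s3y (0.67) and Ddx3y (0.49), which were also higher in Nprl2 KO (0.50 and 0.33), while Uba1y fell (-0.49, adjusted p = 0.0087, or 0.071 without wild-type replicate 2 and 0.057 without Tsc2 KO replicate 2).

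Among the genes with the largest called changes and separate libraries, several belong to none of the pathways above. Hoxc4, a homeobox gene, rose from 0.454 and 0.719 to 5.45 and 8.77 CPM (3.62 ± 0.45, adjusted p = 0.00012), and Tgfbi, an adhesion protein of the extracellular matrix, from 8.99 and 5.27 to 49.7 and 39.8 CPM (2.62 ± 0.21, adjusted p = 1.6e-05). Slc13a5, a citrate transporter, went from 0.727 and 0.599 to 4.57 and 5.58 CPM (2.90 ± 0.36, adjusted p = 0.00011), and the mitochondrial dimethylglycine dehydrogenase gene Dmgdh from 0.908 and 0.719 to 4.96 and 8.04 CPM (2.97 ± 0.38, adjusted p = 0.00013). Tgfbi was lower in Nprl2 KO than in wild-type (-1.77, adjusted p = 0.0077). On the falling side Vrtn went from 20.6 and 12.2 to 0.801 and 1.52 CPM (-3.81 ± 0.37, adjusted p = 0.00018). Enpp2, the enzyme autotaxin that makes lysophosphatidic acid, went from 10.4 and 9.71 to 0.641 and 1.16 CPM (-3.46 ± 0.25, adjusted p = 2.2e-06), and the membrane-bound protease gene Mmp25 from 11.9 and 7.43 to 1.04 and 0.869 CPM (-3.35 ± 0.31, adjusted p = 1.6e-05). Enpp2 was higher in Nprl2 KO than in wild-type (1.33, adjusted p = 0.0006). Prom2 had 17 and 30 counts in wild-type and 1 count in each Tsc2 KO library.

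**Figure D4:**
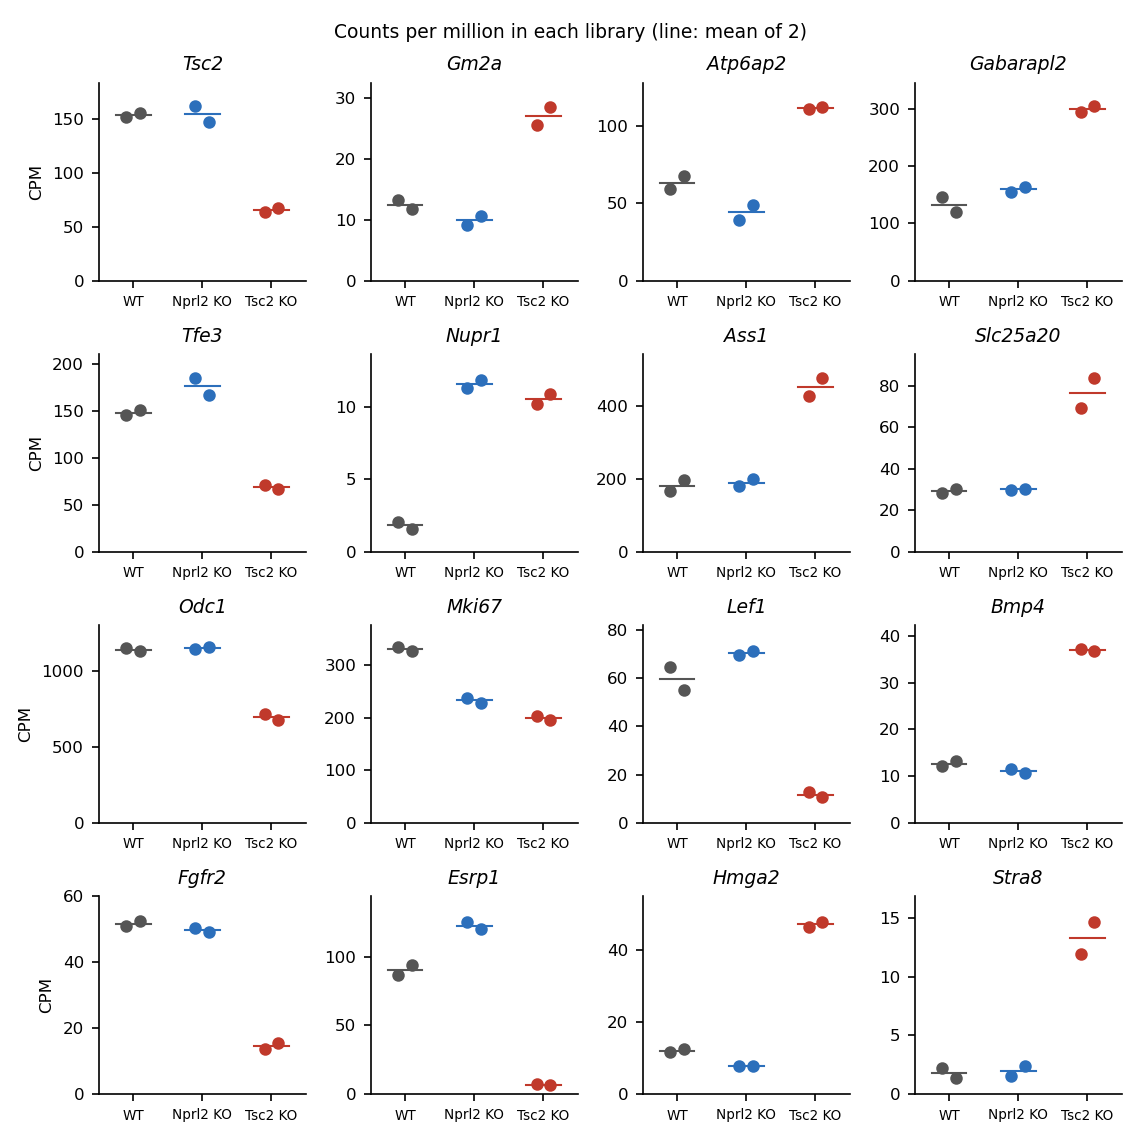
CPM of 16 genes in each library, with a line at the mean of the 2 libraries of a genotype (wild-type grey, Nprl2 KO blue, Tsc2 KO red). The Tsc2 KO points are clear of the wild-type points in every panel, the Nprl2 KO points lie beside them for Nupr1 and between the other groups for Mki67.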

How the data were processed

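Poly(A) RNA of sorted GFP+ mESCs was sequenced by the study as stranded, paired-end libraries. Per the labels and the submitters' processing notes, the authors quantified transcripts with kallisto 0.42.1 on mm10 and also name DESeq2. The deposited tables give, for each library, an estimated count and a TPM (abundance scaled to transcript length and library size) for each of 34079 transcripts, with no filter on genes. The estimated counts of the deposited files were summed per gene (33709 transcripts matched by RefSeq, 196 by GENCODE, 174 without a gene, the last holding 1.65 to 2.03% of counts) and rounded, and the TPM values from the authors served only as an alternative.

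Genes were tested with edgeR 4.0.16 in R 4.3.3 (filterByExpr, TMM, robust quasi-likelihood F test) in 1 fit of the 6 GFP+ libraries, 2 each of the 3 genotypes, with genotype as the only term, and p-values were adjusted by Benjamini-Hochberg over the 13725 genes tested, with a threshold of 0.05. The filter removed 10571 genes. Standard errors are the log2 difference divided by the root of F, and so take in the spread between libraries that the fit estimates. The floor given for a count of 0 covers counting error only. With 2 libraries a genotype the spread rests on 3 residual degrees of freedom and on the pooling across genes. Replicates of a genotype differed by more than counting noise, so none was taken for 1 library deposited again, which does not show that they are independent cultures.

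Members of 63 gene lists were described by counts and medians without a set test. The members and lists were chosen with earlier results of these data known. Genes were named by a rule: the 10 largest rises and falls among called genes of separate libraries whose mean log2 CPM reached 1, up to 3 called genes of each list in each direction, and regulators or defining members of each list. Others, such as Cln3, Gla, Hexa, Gaa, Psap, Asah1, Fzd2, Fzd7, Fzd8, Notch2, Notch3, Piwil4, Sycp3 and Rec8, were named after their values were seen. Promoter sequences are from RefSeq (GRCm38.p6). DESeq2 1.42.0, limma 3.58.1 and the other alternatives are given in the closing section. The other libraries of the series, from a time course of differentiation, were not used here.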

Additional observations from a re-analysis of the deposited data

How the results depend on the processing

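Of 178 called genes printed, 157 kept their call and direction under every alternative that tested them, and none reversed. A gene that an alternative left out, for example by its count filter, was not counted as lost there. Prom2, for example, was not tested where at least 10 counts were required in every library. The calls lost with 1 library left out are given beside the genes concerned. The total of 3996 calls was 2742 with DESeq2, 4638 without a low-count filter and 3651 with limma on log2(TPM + 1), where 2175 were higher and 1476 lower, and 3596 without the genes of the 2 segments, an alternative chosen after seeing the data. DESeq2 gave 1344 higher genes. Leaving out single libraries, where a lone library is assumed to vary like the other groups, gave 2225 to 3057 calls, with 1152 to 1587 higher and 1073 to 1470 lower. The ranges of list members under the same alternative were 18 to 28 lysosomal, 5 to 12 V-ATPase and 7 to 11 oxidative phosphorylation rises, and 7 to 22 ribosomal protein, 7 to 15 ribosome biogenesis, 6 to 10 purine and pyrimidine, 11 to 17 replication and mitosis and 6 to 8 Notch falls. Limma on TPM called 41 oxidative phosphorylation genes higher, and 55 ribosomal protein genes were lower without a low-count filter. The median over all of chromosome 12 was -0.11, between -0.15 (without wild-type replicate 2) and -0.11 with single libraries left out, and -0.0902 over genes whose mean log2 CPM reached 4. The segment medians, of 0.55 on chromosome 1 and -0.75 on chromosome 12, ranged from 0.52 to 0.57 and from -0.80 to -0.73 with single libraries left out. The cause of these differences was not tested beyond the smaller number of libraries.

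Libraries with the same replicate number deviated together (correlations of 0.328, 0.4 and 0.209 between the 3 pairs of genotypes over 9592 genes), but with 2 numbers and no label of a shared batch this does not show pairing. With the replicate number as a block there were 5255 calls, 2669 higher and 2586 lower. Igf2 alone among the called genes printed lost its call there.

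Some genes that were not called changed sign when single libraries were left out, with log2 differences from -0.12 to 0.26 for Dusp6, -0.14 to 0.073 for Gsk3b, -0.092 to 0.0012 for Hif1a, -0.056 to 0.27 for Mcoln1, -0.063 to 0.10 for Nodal, -0.0019 to 0.13 for Slc2a1, -0.068 to 0.065 for Srebf2 and -0.14 to 0.031 for Tbc1d7. For Srebf2 it was 0.0043 with TMM factors from genes off chromosome 1, 0.00299 with the block and 0.035 with limma on TPM. Of the 20 genes printed as not called, 7 passed the threshold without a low-count filter and 6 with the block (Axin2, Cdkn1a, Dnmt3l, Myc, Tfeb and Uhrf1), Tfeb with an adjusted p of 0.047 and 0.041. Dnmt3l passed with DESeq2 (0.04), and Uhrf1 passed in the fit of the wild-type and Tsc2 KO libraries alone (0.039).

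On the log2(TPM + 1) scale the differences of low genes such as Hoxc4, Fzd1, Lfng and Slc13a5 were smaller by more than 1.5 times. With 2 libraries a genotype and at most 13780861 counts a library, small differences of single low genes were not detectable.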
